A study of Homo sapiens with 6 samples.

Results

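The cytosolic ribosomal proteins were read in Huh-7 cells with and without amiloride. They were chosen by gene symbol, taking every RPL or RPS symbol followed by a number (with an optional A, X or L), the stalk proteins RPLP0 to RPLP2 and RPSA. This pattern matched 79 symbols of the array annotation. RPS27L was left out by the rule, and 4 more symbols (RPL13L, RPL14L, RPS10L and RPS26L) now name pseudogenes, which left 74 genes of 19488 symbols, 48 of the large and 26 of the small subunit. Huh-7 cells are a widely used human hepatoma line. Amiloride, a potassium-sparing diuretic, blocks epithelial sodium channels and, at higher doses, sodium-proton exchangers. In the series, 3 cultures kept in 0.5 mM amiloride for 24 hours were set against 3 untreated cultures, called controls here, on Human Exon 1.0 ST arrays, and the labels call each array a biological replicate. The amiloride stock was made in DMSO, and the labels name no vehicle for the controls. The question of the series was how amiloride alters the expression and splicing of exons across the transcriptome.

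Ribosomal proteins bind ribosomal RNA to form the large subunit, which joins amino acids into a chain, and the small subunit, which decodes the messenger RNA. A growing cell makes them in near equal numbers from very abundant messengers. Most of these messengers begin with a terminal oligopyrimidine tract, a run of C and T that opens with a C, through which the mTOR pathway and the protein LARP1 set their translation. Hepatoma cells, like other dividing cells, rely on steady ribosome production. The genome also holds many processed pseudogenes of ribosomal protein genes. Probes that match such copies cannot tell them from the gene, so the values of single genes below are uncertain in that respect.

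The sequences around the start sites of 8 genes on which the results turn are shown to let a reader see this tract. Each run holds 15 bases before and 15 bases from the start site that RefSeq annotates in GRCh38.p14, on the strand of the gene, and capitals mark a run of at least 5 C or T that opens with C within 5 bases of the start. RPL27A lies at chr11:8682777-8682806 on the plus strand, RPL31 at chr2:101002274-101002303 (plus), RPL28 at chr19:55385917-55385946 (plus), RPL39 at chrX:119791616-119791645 (minus) and RPS18 at chr6:33272060-33272089 (plus). RPL10 lies at chrX:154398050-154398079 (plus), RPS26 at chr12:56041903-56041932 (plus) and RPS29 at chr14:49598696-49598725 (minus).
RPL27A: ttggcgaaggCCTTCCTTTTTCgtctgggc
RPL31: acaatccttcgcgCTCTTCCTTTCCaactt
RPL28: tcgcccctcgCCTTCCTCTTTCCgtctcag
RPL39: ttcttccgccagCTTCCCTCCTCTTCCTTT
RPS18: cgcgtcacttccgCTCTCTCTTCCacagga
RPL10: tttttccactctcagaaatatacgtctgtc
RPS26: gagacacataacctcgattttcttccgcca
RPS29: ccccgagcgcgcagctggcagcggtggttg
The first 5 hold such a run, of 12, 12, 13, 22 and 11 bases, of which that of RPL39 goes on past the window, with 18 of its 22 bases shown. In the last 3 no such run opens within 5 bases of the start, which says nothing of runs farther off. RefSeq entries were matched by symbol for 62 of the ribosomal protein genes, and 50 of them (80.6%) held the run, against 7408 of 35116 (21.1%) of all genes with an entry. In 42 genes (67.7%), against 1429 of all entries (4.07%), the start base itself was a C and opened at least 5 bases of C or T, whether or not a run had already begun before it. Among tested genes, the 48 with the run had a median log2 fold change of 0.42 and the 12 without it one of 0.39. Whether they differed was not tested.

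Intensities were not on one scale across arrays. Array medians were 12, 4.71 and 6.26 in amiloride 1 to 3 and 13, 5.08 and 6.42 in controls 1 to 3, close between arrays of the same number. Each array was therefore centred on the median of its gene levels, and all levels below are log2 values above or below that median. A gene level is the median over the probe sets of the gene that passed a filter on dim values, and a probe set is a group of probes that reads a short stretch of the transcript. The ribosomal protein genes had 1191 probe sets of their own, from 2 to 69 a gene, and 72 genes had the 3 kept probe sets needed for a test (47 large, 25 small). RPL29 and RPS12, with 2 probe sets each, were not tested. With all probe sets, RPL29 stood at 2.96, 2.29 and 3.06 in amiloride, against 2.52, 3.86 and 2.63 in controls. RPS12 stood at 0.72, 1.05 and 1.06 in amiloride, against 0.52, 1.21 and 0.91 in controls, and both genes overlapped between the groups. The liver identity of the cells was checked with 16 hepatocyte markers, of which 14 were tested and all 14 lay above the array median. Of 18 markers of other cell types, 16 were tested and 3 lay above it. One array stood apart. Control 1 correlated with no other array above 0.723 over genes, while the other arrays had a best correlation of 0.891 to 0.95, and its gene levels spread least (interquartile range 1.19, against 1.38 to 1.74).

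No ribosomal protein gene passed the test. In the limma fit over 17018 genes with Benjamini-Hochberg adjustment, 0 of 72 were called higher and 0 lower at an adjusted p under 0.05, beside 2 of all genes higher (0.0118%) and 0 lower (0.00%). The smallest adjusted p was 0.237 among large subunit genes and 0.384 among small subunit genes. By sign, 57 genes lay higher and 15 lower in amiloride, and the median log2 fold change was 0.34 for the large subunit (interquartile range 0.11 to 0.5) and 0.45 for the small subunit (0.07 to 0.58), against 0 over all genes. An array reads shares of the RNA put on it, so a change of a gene cannot be told apart from a change of RNA content per cell. At an unadjusted p under 0.05, 6 genes were higher (RPL31, RPL27A, RPL28, RPL10, RPS19 and RPS24), 8.33% of those tested, against 9.10% of all genes, and 0 were lower, against 2.43%. In 6 genes (RPL31, RPL27A, RPL28, RPL10, RPL5 and RPS23) every amiloride array lay above every control, again 8.33%, against 11.9% of all genes, and in 0 genes below, against 7.05%. Neither count stood above the background.

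The upward median rested on single arrays. The 72 genes had array medians of 3.17, 3.24 and 3.94 in amiloride and 1.98, 3.58 and 3.63 in controls. Control 1 was lowest and amiloride 3 highest, while amiloride 1 and 2 lay below controls 2 and 3. The large subunit followed this order with medians of 3.32, 3.39 and 4.02 in amiloride and 2.03, 3.68 and 3.75 in controls. The small subunit had medians of 2.99, 3.03 and 3.76 in amiloride and 1.81, 3.31 and 3.12 in controls. Control 1 was the lowest of the 6 arrays in 52 of 72 genes, against 33.1% of all genes, and amiloride 3 the highest in 45, against 17.2%. Without control 1, 35 genes lay higher and 37 lower, and the medians were -0.03 for the large and 0.03 for the small subunit. Without amiloride 3 they were 0.10 and 0.14, with 42 genes higher and 29 lower. Leaving out any other array gave medians of 0.44 to 0.58. Control 1 also held the lowest sum of hepatocyte marker levels, which, as linear multiples of the array median, ranged from 353 to 382 in amiloride and from 241 to 455 in controls. The same sum of the markers of other cell types, with insulin (INS) the highest of them, ranged from 13.8 to 15.1 in amiloride. In controls it ranged from 13.7 to 21.4 and was highest in control 1. The part that these differences between arrays play in the ribosomal protein values was not tested.

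**Figure D1:**
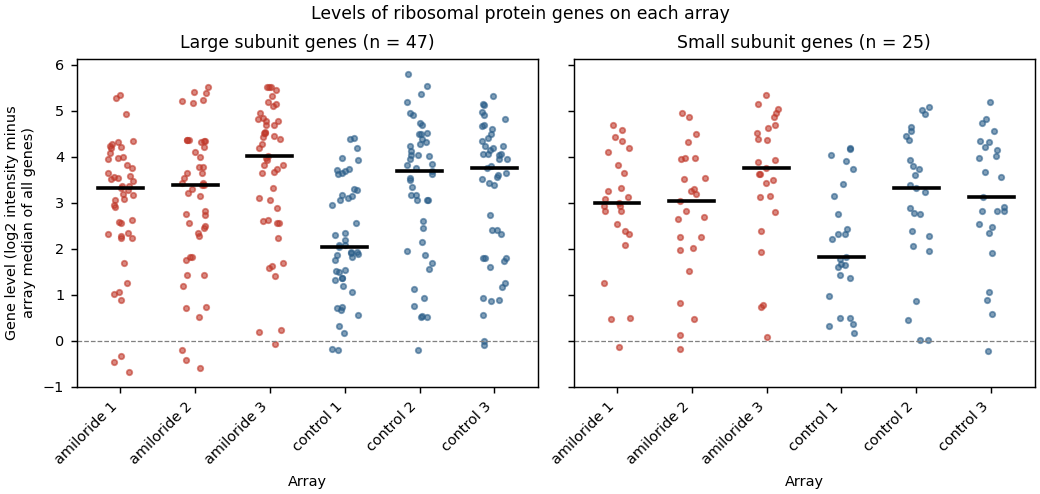
Gene levels of the tested ribosomal protein genes on each array (log2, relative to the array median of all genes), with amiloride arrays left of controls, the large and the small subunit apart, and lines at the medians. The genes of control 1 sit lowest, with a large subunit median of 2.03, and those of amiloride 3 highest, with one of 4.02.

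**Figure D2:**
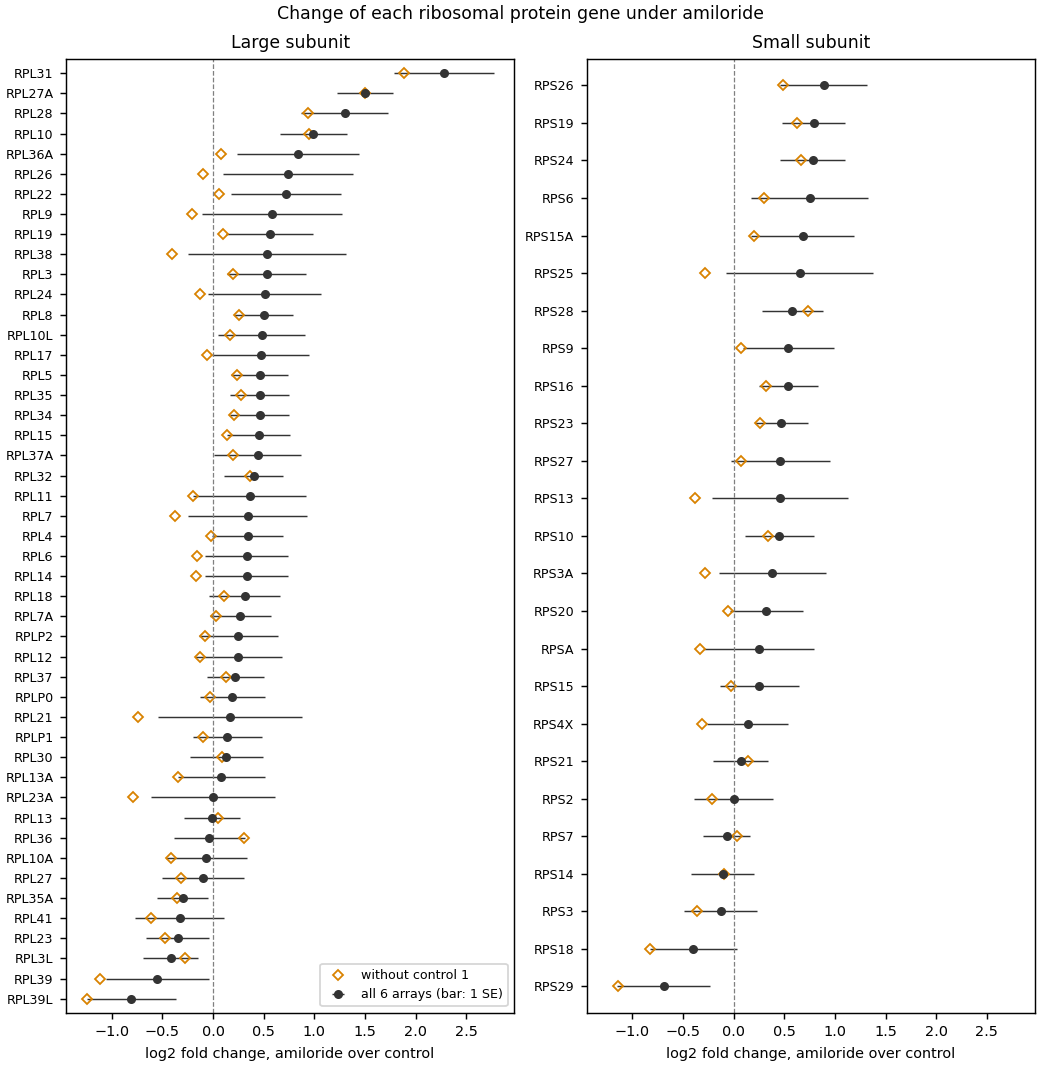
Log2 fold change (amiloride over control) of each tested ribosomal protein gene with all 6 arrays (filled points, bars of 1 SE) and without control 1 (open points). With all arrays 57 of 72 genes lie above 0, and without control 1 35 do.

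Among large subunit genes, RPL31, RPL27A, RPL28 and RPL10 had the highest fold changes, and in each of them, as in RPL5, every amiloride array lay above every control. RPL31, a protein of the large subunit near the exit of the peptide tunnel, had levels of 2.23, 3.64 and 3.83 in amiloride and 0.16, 1.55 and 1.16 in controls. Its difference was the largest of the family, a log2 fold change of 2.28 (SE 0.49, n = 3 arrays a group, limma adjusted p = 0.239), or 4.85-fold. The lowest amiloride array lay above the highest control. RPL27A, which binds ribosomal RNA in the large subunit, had levels of 2.24, 1.76 and 2.63 in amiloride and 0.71, 0.53 and 0.89 in controls, and its log2 fold change of 1.5 (SE 0.28, adjusted p = 0.237) was 1.5 also without control 1. The controls of RPL27A agreed within an SD of 0.18. RPL28, another large subunit protein, had levels of 3.52, 3.39 and 3.10 in amiloride and 1.31, 3.07 and 1.73 in controls. Its log2 fold change was 1.30 (SE 0.43, adjusted p = 0.312), and control 2 lay just below the lowest amiloride array. RPL10, which joins the large subunit late in its assembly, had levels of 2.63, 3.14 and 3.66 in amiloride and 2.08, 2.60 and 1.79 in controls, a log2 fold change of 0.99 (SE 0.33, adjusted p = 0.32). The amiloride 1 value of RPL10 was close to that of control 2. These values depended on how probe sets were combined. A further setting took the mean of the 3 brightest probe sets and centred each array anew on the median of these levels. It gave log2 fold changes of 0.43 for RPL31, 0.30 for RPL27A and 0.37 for RPL28. Over the settings tried, the log2 fold change of RPL10 ran from -0.36 to 1.24.

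RPL36A came next in order, and its value rested on control 1. Its levels were 2.90, 3.43 and 3.94 in amiloride and 1.06, 3.17 and 3.52 in controls, so that control 1 alone lay apart. The log2 fold change of 0.84 (SE 0.60, adjusted p = 0.609) was 0.08 without control 1. RPL5 and RPL11, which form a particle with the smallest ribosomal RNA and can bind the p53 regulator MDM2, differed less. RPL5 had levels of 4.32, 4.35 and 4.83 in amiloride and 3.62, 4.31 and 4.20 in controls, without overlap but with amiloride 1 and control 2 almost level. Its log2 fold change was 0.46 (SE 0.28, adjusted p = 0.563), and 0.24 without control 1 and 0.29 without amiloride 3. For RPL11 the groups overlapped, with levels of 3.57, 5.23 and 4.96 in amiloride and 3.11, 4.90 and 4.67 in controls, and the value of 0.36 (SE 0.56) was -0.20 without control 1 and 0.86 without amiloride 1. The stalk proteins, which recruit the GTPases that drive translation, showed small differences, with log2 fold changes of 0.19 (SE 0.32) for RPLP0, 0.14 (SE 0.34) for RPLP1 and 0.25 (SE 0.39) for RPLP2. All 3 overlapped between groups. Leaving out 1 array each, they ran from -0.03 to 0.45 for RPLP0, from -0.12 to 0.39 for RPLP1 and from -0.08 to 0.53 for RPLP2.

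At the other end were RPL39L, RPL39, RPL3L, RPL23 and RPL41. RPL39 lines the peptide tunnel, and RPL39L is its copy known from testis and some tumours. RPL39L had levels of -0.34, -0.21 and 0.19 in amiloride and -0.20, 1.69 and 0.56 in controls, a log2 fold change of -0.81 (SE 0.44, adjusted p = 0.52). Controls 2 and 3 lay above all amiloride arrays, and control 1 did not. RPL39 had levels of 2.57, 1.83 and 3.07 in amiloride and 1.89, 3.84 and 3.39 in controls, a log2 fold change of -0.55 (SE 0.51, adjusted p = 0.694). It had the same order, with controls 2 and 3 on top. Without control 1 the values were -1.25 for RPL39L and -1.12 for RPL39, more than 1.5 times the values with all arrays. Without control 2 they were -0.30 and -0.15. RPL41, the smallest ribosomal protein, had levels of 3.18, 1.82 and 3.33 in amiloride and 2.55, 3.16 and 3.61 in controls, a log2 fold change of -0.33 (SE 0.44). Its amiloride 2 level was the lowest, and without that array the sign turned (0.15). RPL23, which like RPL5 can bind MDM2, had a log2 fold change of -0.35 (SE 0.31), with its groups overlapping, and ran from -0.61 without amiloride 3 to -0.13 without control 2.

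RPL3L and RPL10L are further copies with restricted expression, RPL3L in heart and skeletal muscle and RPL10L in testis. RPL3L had levels of -0.68, -0.41 and -0.07 in amiloride and 0.32, -0.21 and 0.00 in controls, a log2 fold change of -0.42 (SE 0.27, adjusted p = 0.569), and -0.28 without amiloride 1 or without control 1. RPL3, which lies near the site of peptide bond formation, had a log2 fold change of 0.53 (SE 0.39) with all arrays, and 0.20 without control 1 and 0.80 without control 2. RPL10L, read by 3 kept probe sets, had levels of 2.35, 2.56 and 3.65 in amiloride and 1.75, 3.06 and 2.31 in controls, a log2 fold change of 0.48 (SE 0.43), and 0.08 without amiloride 3 and 0.17 without control 1. In each of these 3 genes the groups overlapped. Whether a copy and its parent differed in response was not tested.

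In the small subunit, RPS26, RPS19, RPS24, RPS6 and RPS15A stood highest. RPS26, RPS19 and RPS24 are mutated in Diamond-Blackfan anaemia, a failure of red cell production. RPS26, read by 3 probe sets, had levels of 2.81, 3.26 and 3.93 in amiloride and 1.64, 3.23 and 2.47 in controls, a log2 fold change of 0.89 (SE 0.43, adjusted p = 0.473), and 0.49 without control 1. Its control 2 lay just below amiloride 2 and above amiloride 1. RPS19 had levels of 2.93, 2.26 and 3.13 in amiloride and 1.66, 1.95 and 2.35 in controls, a log2 fold change of 0.79 (SE 0.31, adjusted p = 0.384). Amiloride 2 and control 3 crossed over by a small margin. RPS24 had levels of 1.26, 0.82 and 1.92 in amiloride and 0.32, 0.46 and 0.89 in controls, a log2 fold change of 0.78 (SE 0.32, adjusted p = 0.414). Again amiloride 2 lay just below control 3. RPS19 and RPS24 had values of 0.63 and 0.66 without control 1, and RPS24 one of 0.49 without amiloride 3. RPS6, the substrate of the ribosomal protein S6 kinases, had levels of 2.09, 1.52 and 2.79 in amiloride and 0.49, 0.86 and 2.81 in controls. Its control 3 was as high as the highest amiloride array, and the log2 fold change of 0.75 (SE 0.58, adjusted p = 0.638) was 0.30 without control 1 and 1.45 without control 3. RPS15A, at 0.68 (SE 0.51), overlapped between groups and ran from 0.20 without control 1 to 1.11 without control 3. RPS23, which takes part in accurate decoding, was the only small subunit gene tested here without overlap. It had levels of 2.93, 3.19 and 3.15 in amiloride and 2.21, 2.76 and 2.91 in controls, with a log2 fold change of 0.47 (SE 0.26, adjusted p = 0.534), and 0.26 without control 1. Its amiloride 1 and control 3 nearly met.

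RPS29, RPS18, RPS3, RPS14 and RPS7 stood lowest. RPS29, a small zinc-binding protein, had levels of 0.50, 0.47 and 0.78 in amiloride and 0.37, 2.38 and 1.06 in controls, a log2 fold change of -0.69 (SE 0.46, adjusted p = 0.587). The amiloride arrays lay together, and control 2 stood far above the rest. Without control 1 the value was -1.14 and without control 2 it was -0.13. RPS18, in the head of the small subunit, had levels of 2.99, 2.83 and 3.76 in amiloride and 2.75, 4.37 and 3.66 in controls, a log2 fold change of -0.40 (SE 0.43, adjusted p = 0.727). It too was highest in control 2, and its value was -0.83 without control 1 and -0.01 without control 2. RPS3 (-0.13), RPS14 (-0.11) and RPS7 (-0.07) differed by less than their standard errors of 0.36, 0.31 and 0.23, and their signs turned without amiloride 2 or control 2 (RPS3 and RPS14) or without control 1 (RPS7). RPSA, a small subunit protein also known as the laminin receptor precursor, had levels of 2.83, 2.64 and 3.62 in amiloride and 1.60, 3.92 and 2.81 in controls. Controls 1 and 2 were the lowest and highest of its 6 arrays, and the log2 fold change of 0.25 (SE 0.54) was -0.33 without control 1 and 0.83 without control 2.

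**Figure D3:**
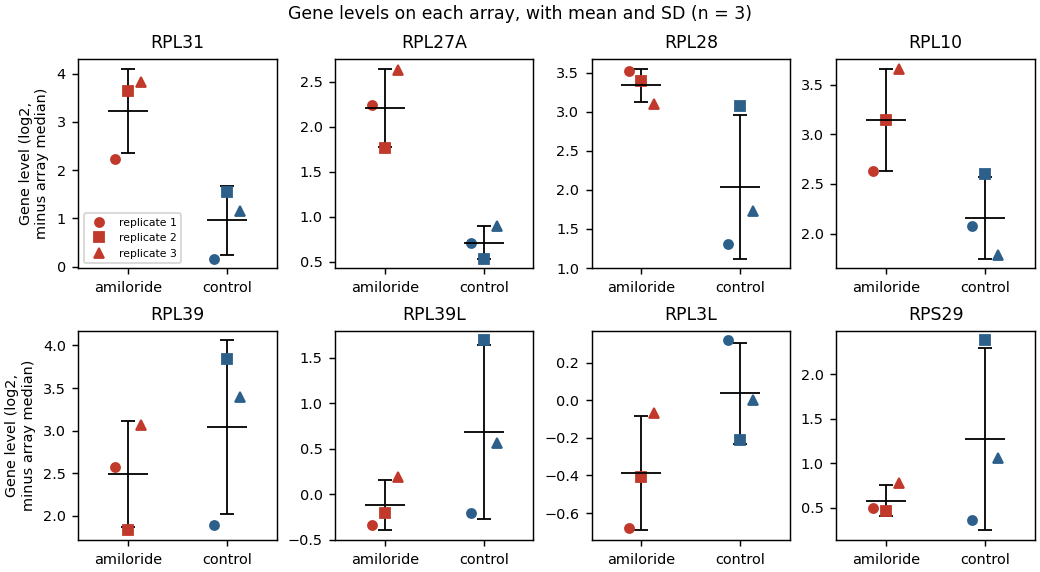
Gene levels (log2, relative to the array median) of 8 named genes on each array, amiloride left of control, with the mean and SD of each group (n = 3) and a marker shape for each replicate. RPL31, RPL27A, RPL28 and RPL10 do not overlap between groups, and RPL39, RPL39L and RPS29 have controls 2 and 3 on top with control 1 low, while in RPL3L control 1 is highest.

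The genes RPL31, RPL27A and RPL28 were then read probe set by probe set, since their value fell with the brightest probe sets alone. The brightness of a probe set also depends on its probes, so brightness was used to sort probe sets within a gene and not as a measure of exon use. In RPL27A, 18 probe sets were kept, with a median difference of 0.36, against 1.5 for the gene level. The 3 brightest, 2980369, 3319604 and 3319610, differed by 0.20, 0.06 and 0.37 and overlapped between groups. In contrast, 6 probe sets lay higher on every amiloride array, among them 3319614 with a difference of 2.80 and 3319618 with one of 2.16. The largest difference was at 3319619, which read 2.34, 1.64 and 3.40 in amiloride and -1.80, -0.66 and -0.67 in controls. All 3 control values lay below the array median there. The probe sets of RPL27A are numbered in separate blocks, one from 2980367 to 2980371 and one from 3319588 to 3319620.

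RPL28 had 16 kept probe sets and a similar split, with a median difference of 0.42, against 1.3 for the gene level. The brightest, such as 3842151 and 3842147, differed by 0.24 and 0.32 and overlapped. Another bright one, 3842154, differed by 0.39 and did not overlap. The 4 with the highest numbers, 3842155 to 3842158, differed by 2, 1.59, 1.47 and 1.42, and in each every amiloride array lay above every control. Probe set 3842155 read 3.79, 3.28 and 2.01 in amiloride and 1.51, 0.62 and 0.95 in controls. Probe set 3842149 went the other way through a single array, with -0.73, -0.29 and -0.79 in amiloride and -0.03, 5.92 and -1.19 in controls. In RPL31, with 9 kept probe sets, the bright ones 2496540, 2496542 and 2496547 differed by 0.64, 0.22 and 0.17. Probe set 2496562 read 2.23, 3.64 and 3.83 in amiloride and 0.67, 1.55 and 1.16 in controls. As the middle probe set it set the gene level of RPL31 on all arrays but control 1. The value of RPL31 thus came from 1 probe set on 5 arrays, and 2 of its 9 lay higher without overlap.

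**Figure D4:**
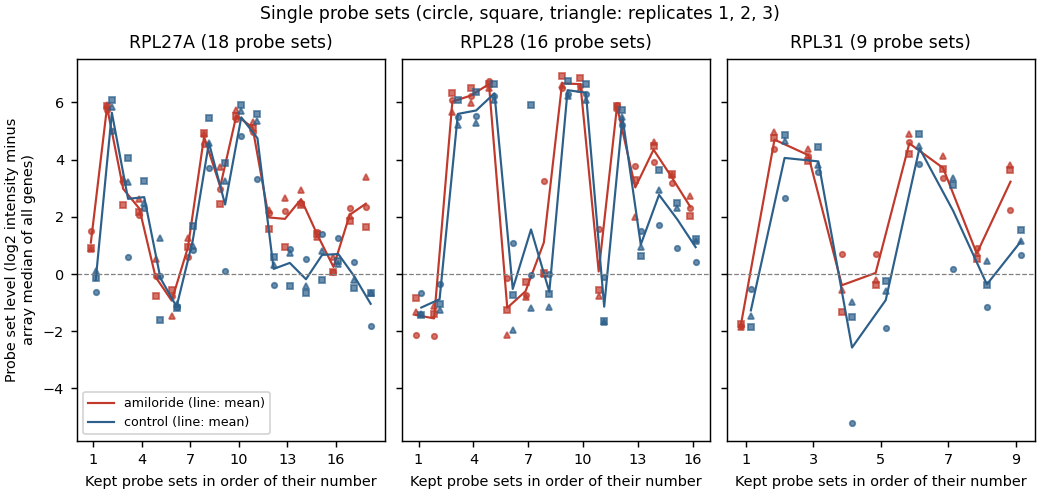
Kept probe sets of RPL27A, RPL28 and RPL31 in order of their number (x axis), each with its values on the amiloride and control arrays (log2, relative to the array median), with lines joining the group means. The bright probe sets of both groups lie close together and some dimmer ones separate, as at the last of RPL27A, 3319619, with a difference of 3.5.

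RPL39L, RPS29 and RPL39 were more even. All 7 kept probe sets of RPL39L lay lower in amiloride, with differences of -0.89 to -0.14, and so did all 8 of RPS29, with -1 to -0.01. In RPL39, 9 of 10 lay lower. Without overlap between the groups, 0 were lower in RPL39L, 0 in RPL39 and 1 in RPS29. Probe sets of a gene read the same RNA on the same arrays, so they are not replicates of each other. These counts by sign were not set beside those of all genes. In RPS18, 9 of 12 lay lower, but 1 was higher by 1.24. RPS26 had 3 of 3 higher, by 0.65 to 1.28, but 0 without overlap, and RPS19 had 7 of 10 higher, 3 without overlap. The probe sets of RPS26, 2782510, 3417241 and 3723563, are numbered far apart. Those of RPL39, RPS18, RPS29 and RPS19 also lie in separate blocks, and the RPS18 one higher by 1.24, 3548492, stands alone. Whether all of them read the gene itself was not tested.

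This split by brightness did not run through the family. Of 69 genes with more than 3 kept probe sets, the other probe sets had a larger difference than the 3 brightest in 32, and the medians were 0.31 for the 3 brightest and 0.32 for the others. Differences over 1 were found in 0 genes from the 3 brightest and in 2 from the others, RPL17 (1.25, against 0.74 from its 3 brightest) and RPL31 (1.21, against 0.34). These values kept the centring of the main fit, so they differ from those of the setting with the 3 brightest probe sets above. The 524 ribosomal protein probe sets with a mean log2 intensity of 8 or over had a median difference of 0.32, against 0.12 in the 8749 of all genes, and without control 1 the values were 0.01 and -0.04. In the range of 6 to 8, the 240 of the family had a median of 0.39, against 0.13 in 43923 of all genes, and without control 1 it was -0.16, against -0.01. In the range of 4 to 6, the 248 of the family had a median of 0.33, against 0.02 in 130198 of all genes, and without control 1 it was 0.26, against 0.03. Below 4 the 122 of the family (-0.05) and all genes (-0.03) lay together. The split and the ranges were chosen after the values had been seen.

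Splicing was read with the splicing index, which subtracts from each probe set's log2 value the level of its gene on that array. None of the 1130 indices of ribosomal protein genes passed (0 by limma at an adjusted p under 0.05, smallest 0.947), as for all 269283 (0.00%). At an unadjusted p under 0.05, 21 were higher (1.86%, against 1.85% of all) and 36 lower (3.19%, against 2.72% of all), so both shares were near the background. For single probe sets, 0 of 1134 passed, beside 0.00% of 704143. The lowest p of an index was at 3319617 of RPL27A, with -2.17, -1.70 and -2.02 in amiloride and 0.56, -0.06 and -0.54 in controls, a difference of -1.95 (SE 0.36). Its level, by contrast, differed by -0.45. In RPL10, probe set 3996322 had indices of -3.87, -3.29 and -4 in amiloride and -2.33, -1.94 and -1.63 in controls, a difference of -1.75 (SE 0.33). Neither index overlapped between groups. Both were taken against gene levels that lay higher in amiloride, by 1.5 in RPL27A and 0.99 in RPL10. RPL10, however, gave 0.38 from its 3 brightest probe sets and 0.29 from the others. Over the 18 kept probe sets of RPL27A the median difference was 0.36. Probe set 3319604 of RPL27A, whose own level differed by 0.06, thus had an index difference of -1.44.

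The study singled out exons by a fold rule. It asked for a splicing index and a level both at least 3-fold lower in amiloride, and a correlation of at least 0.7 between the expression profiles of the groups. Here the rule was applied to means over replicates, with medians over probe sets as gene levels and the correlation taken over the probe sets of a gene. The study does not say whether it did the same. Of 1187 probe sets of the family, 1 met it, against 0.382% of all 356353. It was 3842149 of RPL28, with mean log2 intensities of 3.86 in amiloride and 5.96 in controls, and it did not meet the rule without control 2, whose value was 9.74. With the rule turned to higher values, 8 of the 1187 met it, against 817 of all 356353 (0.229%). The share of the family thus lay below that of all probe sets for lower values and above it for higher values. Whether these shares differed was not tested. The 8 lay in RPL10, RPL27A, RPL37, RPL37A, RPL5, RPL7, RPL7A and RPS24, 1 each. Without amiloride 1, 7 of the 8 no longer met it, all but that of RPL27A, which in turn failed without control 1, so that 0 of the 8 met it under each omission of 1 array. The means were not centred, and amiloride 1 had a median gene level of 5.37, against 3.9 and 4.14 in amiloride 2 and 3. Leaving it out thus lowered the log2 ratios through the scale of the array as well. How many of the 8 would be lost with centred arrays was not tested. The RPS24 probe set 3253457 read log2 intensities, before centring, of 7.99, 5.35 and 6.19 in amiloride and 4.88, 3.66 and 4.06 in controls. Its groups did not overlap, and it met the rule without any array except amiloride 1.

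Genes that make ribosomes or work with them were set beside the family, from lists of known members, and 0 genes of any list passed the limma test. Of 9 tested ribosomal proteins and near relatives outside the symbol rule, 8 lay higher and 1 lower, with a median log2 fold change of 0.35, and 0.05 without control 1. RPL26L1, a copy of RPL26, had levels of 1.67, 0.46 and 1.07 in amiloride and -0.48, -0.40 and 0.00 in controls, a log2 fold change of 1.37 (adjusted p = 0.249), without overlap. RPS19BP1, which binds RPS19, had one of 1.06 and RPL22L1, a copy of RPL22, one of -0.14. The 32 translation factors and other genes known for an oligopyrimidine tract had 25 members higher, 7 lower and a median of 0.34, which was -0.06 without control 1. Among them, SNHG1, a host gene of small nucleolar RNAs, had levels of 2.66, 2.72 and 3.52 in amiloride and 0.14, 1.73 and 1.34 in controls, a log2 fold change of 1.90 (adjusted p = 0.239). EIF3D, an initiation factor subunit, had one of 0.97, and EIF3B and PABPC4, a second subunit and a poly(A)-binding protein, had -0.34 and -0.38.

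The 109 tested genes of ribosome biogenesis had a median of 0.41, with 92 higher and 17 lower. Without control 1 their median was 0.27. NIP7, which acts in the maturation of ribosomal RNA, had levels of 2.91, 3.03 and 3.02 in amiloride and 1.43, 1.97 and 1.2 in controls, a log2 fold change of 1.45 (SE 0.26, adjusted p = 0.219). The amiloride arrays of NIP7 lay close together (SD 0.07), and each lay above every control. RPF1, a factor of large subunit assembly, had a value of 1.51, and MDN1 and DDX54, an ATPase and a helicase of the same process, had -0.45 and -0.60. The 76 mitochondrial ribosomal proteins, encoded by other genes for another ribosome, had a median of 0.51 with 64 higher and 12 lower, and 0.28 without control 1. MRPS33 and MRPS6 stood highest in it at 2.16 and 1.87, and MRPL40 and MRPL17 lowest at -0.46 and -0.56.

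The mTOR and S6 kinase genes, which control the translation of these messengers, had a median of 0.19 over 34 genes, with 20 higher and 14 lower, and 0.16 without control 1. PPP2CA, a catalytic subunit of protein phosphatase PP2A, had levels of 3.40, 3.92 and 3.70 in amiloride and 2.03, 2.54 and 1.98 in controls, a log2 fold change of 1.49 (SE 0.26, adjusted p = 0.219). EIF4E, which binds the messenger cap, had one of 1.37 and EEF2K, a kinase that slows elongation, one of -0.55. DDIT4, which inhibits mTOR under stress, had levels of -0.95, -1.24 and -1.16 in amiloride and -0.57, 1.77 and 1.83 in controls. Controls 2 and 3 lay far above the other arrays. Its log2 fold change was -2.13 (SE 0.58, adjusted p = 0.263) with all arrays and -2.92 (limma adjusted p = 0.0102) without control 1.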

How the data were processed

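Total RNA of 3 amiloride-treated and 3 untreated Huh-7 cultures was hybridized to exon arrays. The authors corrected the scans with background probes, normalized them and summarised them in dChip. The deposited values are linear intensities, 1 for each probe set on each array. The labels name hg18, and the release of dChip differs between the methods and the series text. Of 1408285 probe sets, 357582 had 1 gene symbol in the platform annotation, 15322 several and 1035381 none. Only those with 1 symbol were used, so 97 that name a ribosomal protein gene and another gene were left out, and 0 columns were left out. No exon or position of a probe set was used.

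Intensities under 1 were set to 1 before log2. The filter kept 704143 probe sets whose log2 values averaged 2.796 or more over the 6 arrays, where 2.796 is the median of all probe sets. Gene levels were medians over at least 3 kept probe sets, centred per array on the median gene level. Genes, probe sets and splicing indices were fitted with lmFit and eBayes (R 4.3.3 and limma 3.58.1), two-sided, without a block. For the fold rule, all probe sets and uncentred means were used. Only the fit of gene levels was tested on simulated data, and not those of probe sets and splicing indices. The simulated noise was independent and had the same spread on all arrays, with none standing apart as control 1 did. The check asked only that planted changes larger than any in the family be called. It therefore cannot tell how well smaller changes would be found in these data. With 3 arrays against 3, an exact permutation test cannot go below 0.1, so none was used. The number of arrays limits the precision.

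The ribosomal protein genes and all lists were chosen with earlier results of these data known. Genes were named if they were among the 5 highest or lowest of a subunit or the 2 highest or lowest of a list, or for their role (stalk, RPSA, RPS6, RPL5, RPL11, RPL41 and tissue-restricted copies with their parents). RPS23 and RPL17 and the probe sets described were picked after their values were seen. Alternatives changed the scaling, offset, filter, gene summary, model and arrays used.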

Additional observations from a re-analysis of the deposited data

How the results depend on the processing

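In each alternative, 0 ribosomal protein genes were called in either direction, and 0 of their probe sets and splicing indices in the alternatives where these were fitted. Over scaling, offset, filter, summary and model, the median log2 fold change was 0.29 to 0.41 for the large and 0.34 to 0.52 for the small subunit. Leaving out 1 array each gave -0.03 to 0.51 for the large and 0.03 to 0.58 for the small subunit, both lowest without control 1. Of all genes, 2 were called higher and 0 lower. None was called higher (0) with log2(value + 16), with a filter at the upper quartile of brightness (3.973), with the mean over kept probe sets or with the mean of the 3 brightest, and 4 were with eBayes trend and robust. Leaving out 1 array each gave 0 to 4 higher and 0 to 2 lower, the most in both directions without control 1. The cause was not tested. The only other result that crossed its threshold was DDIT4, lower by limma without control 1 (adjusted p = 0.0102).

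Arrays of the same replicate number correlated at 0.184, 0.0868 and 0.278 over gene levels after removal of group means. Their intensity medians also lay close. Correlations between arrays of different numbers were not computed for comparison. The labels do not say whether the numbers mark pairs, so the main fit took none. Whether arrays of the same number shared a batch was not tested. With the replicate block, 3 genes were called higher and 0 lower, 0 of them ribosomal protein genes, and the subunit medians stayed at 0.34 and 0.45. The smallest adjusted p of the family under the block was 0.0763, for RPL31.

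Over all settings, the log2 fold change of RPL31 ran from 0.43 to 2.78, of RPL27A from 0.30 to 1.72 and of RPL28 from 0.37 to 1.82. That of RPL39L ran from -1.25 to -0.30 and of RPS29 from -1.14 to -0.13.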
